A study of Mus musculus with 2 samples.

Results

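The genes for heat shock proteins, DnaJ proteins and chaperonins were compared between mouse E14 embryonic stem cells (ESCs) and Sox2 T258A ESCs by RNA-seq. Membership was decided by gene symbol alone: the HSP70, HSP110, HSP90 and small heat shock protein symbols, Hspd1, Hspe1, Dnaja, Dnajb and Dnajc symbols with a number, and numbered Cct symbols, with pseudogene symbols left out. Of the 24532 genes in the table, 78 met this rule: 11 HSP70, 3 HSP110, 3 HSP90, 8 small HSP, 10 chaperonin, 4 DnajA, 13 DnajB and 26 DnajC genes. The rule misses chaperone genes with other names, among them Tcp1, Cryaa, Cryab, Trap1 and Hyou1, which are given below as partners.

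E14 is an established mouse ESC line, wild type for Sox2 and grown in serum with LIF. The Sox2 T258A cells were 1 clone of E14 in which CRISPR/Cas9 and a single-stranded donor had changed threonine 258 of Sox2, a site for the sugar O-GlcNAc, to alanine on 1 allele. This clone was selected and routinely kept with LIF and the 2i inhibitors PD0325901 and CHIR99021, which were withdrawn before use, so that genotype, clone and culture history cannot be told apart. Polyadenylated RNA of each genotype was sequenced as 1 library, and the counted reads came to 60263536 for E14 and 44609228 for Sox2 T258A cells. Without replicates, no p-value can be attached to a difference, and the 95% interval beside each log2 ratio covers counting error alone.

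Molecular chaperones bind unfolded stretches of other proteins and keep them from aggregating while they fold. HSP70 proteins bind and release clients in an ATP-driven cycle. DnaJ proteins deliver the clients and trigger ATP hydrolysis, HSP110 proteins exchange the nucleotide, and HSP90 takes over clients such as kinases and steroid receptors. Chaperonins enclose a client inside a ring, whereas small HSPs hold unfolded proteins without ATP. Mouse ESCs are known for high chaperone levels, and heat shock factor Hsf1 drives part of these genes through heat shock elements, while the unfolded protein response drives those of the endoplasmic reticulum (ER) through ER stress response elements.

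The defining markers of ESCs were present, and all 8 of those examined reached 10 TPM (transcript abundance scaled for gene length and library depth) in both libraries, with Pou5f1 at 1725 and 1759 TPM. Of the 8, 5 were lower in Sox2 T258A cells (background 46.8%), among them Nanog, at 527 and 251 TPM, and Sox2, at 373 and 274 TPM. Pou5f1, Esrrb and Utf1 were higher, though Pou5f1 and Esrrb not under every scaling. The summed level of the ESC markers was 12109 TPM in E14 and 9073 TPM in Sox2 T258A cells. The endoderm markers summed to 31.5 TPM in E14 and 8.48 TPM in Sox2 T258A cells, and Afp had no reads in either library. Fibroblast markers summed to 49.99 and 19.8 TPM, mostly from Thy1, with no reads for Lum or Dcn. In bulk RNA, fewer cells of a type and less RNA per cell cannot be told apart.

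Promoter sequence is shown first for the members in which an element was found, because it groups genes whose levels are compared below. The windows came from RefSeq (GRCm38.p6) and reached from 250 bases before each transcript start to 50 bases after it, and 64 of the 78 members had a window. A heat shock element was taken as GAA, 2 bases, TTC, 2 bases, GAA, or the same 3 units beginning with TTC, so that it reads alike on both strands. It occurred in 0.603% of all 32851 windows, or in 0.662% of the 27025 genes with a window. Of the 64 members, 4 held it (6.25%), namely Dnajb6, Hsph1, Hspd1 and Hspe1. The capitals below mark the element, and bases before the transcript start are shown.
Dnajb6 (chr5:29735812-29735897, plus strand): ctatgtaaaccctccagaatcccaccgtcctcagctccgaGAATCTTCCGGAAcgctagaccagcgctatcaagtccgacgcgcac
Hspe1 and Hspd1, shared (chr1:55088019-55088116, plus strand): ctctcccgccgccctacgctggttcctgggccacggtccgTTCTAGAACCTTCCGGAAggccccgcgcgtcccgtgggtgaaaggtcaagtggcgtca

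Hspd1 and Hspe1, the mitochondrial chaperonin and its lid, are divergent neighbours, so 1 stretch served both windows. It held a heat shock element with 1 further unit, from 89 to 72 bases before the Hspe1 start and from 144 to 127 bases before that of Hspd1. In Dnajb6 the element ended 34 bases before the upstream of its annotated starts. In Hsph1 it lay inside the transcribed part of the window, from base 16 to 28 after the downstream of its RefSeq starts, and read TTCTGGAAAGTTC (chr5:149636288-149636300, minus strand).

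Among the partner genes with a window, 1 of 53 held a heat shock element, Chordc1, in which the element crossed the transcript start and read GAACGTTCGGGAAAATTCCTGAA (chr9:18292263-18292285, plus strand). An ER stress response element (CCAAT, 9 bases, CCACG, on either strand) occurred in 0.119% of windows, or in 0.137% of genes with a window. Of the 64 members, 3 held it (4.69%), the ER chaperones Hspa5, Hsp90b1 and Dnajc3. Capitals again mark the element, which Hsp90b1 held in 2 copies of opposite orientation.
Hspa5 (chr2:34771985-34772083, plus strand): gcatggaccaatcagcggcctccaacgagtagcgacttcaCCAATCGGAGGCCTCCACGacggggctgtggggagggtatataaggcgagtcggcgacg
Dnajc3 (chr14:118937787-118937885, plus strand): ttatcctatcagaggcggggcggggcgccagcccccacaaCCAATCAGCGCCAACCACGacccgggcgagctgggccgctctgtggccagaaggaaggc
Hsp90b1 (chr10:86705493-86705694, minus strand): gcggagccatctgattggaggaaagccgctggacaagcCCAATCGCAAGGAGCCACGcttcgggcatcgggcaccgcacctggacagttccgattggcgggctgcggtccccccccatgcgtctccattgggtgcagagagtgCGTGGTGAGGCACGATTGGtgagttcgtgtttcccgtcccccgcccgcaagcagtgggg

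Hspa8, Hspa9, Hspa13, Hsp90aa1, Hsp90ab1, Hspb2, Cct4, Dnajc2, Dnajc5, Dnajc11, Dnajc12, Dnajc18, Dnajc22 and Dnajc30 had no window. A match describes the letters in a window and is neither a binding site nor a cause, and its absence says nothing about Hsf1 or other factors.

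As a whole, the chaperone genes took a slightly larger share of the transcriptome in Sox2 T258A cells, and the abundant members accounted for this. Their summed level was 21865 TPM in E14 and 25809 TPM in Sox2 T258A cells, or 2.2% and 2.6% of all TPM. Hspa8 alone made up 43.6% of this difference of 3944 TPM, and without it the log2 ratio of the sums was 0.15 instead of 0.24. Both values are ratios of Sox2 T258A over E14, as are all log2 values below. Of the counted reads, the members took 2.66% in E14 and 2.87% in Sox2 T258A cells, a smaller difference than by TPM.

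Gene by gene, most differences were small. Of the 78 members, 56 reached 10 TPM in either library and 2, Dnajb7 and Dnajb8, had no reads. None of the 56 was more than 2-fold higher in Sox2 T258A cells, against 4.17% of the 9094 genes that passed the same filter, and 1, Hspb6, was more than 2-fold lower, against 4.07%. At 1.5-fold, 6 members were higher (background 14.2%): Hspa8, Dnajb6, Hsph1, Dnajb1, Dnajc13 and Hspa13. The members lower by 1.5-fold (background 10.5%) numbered 4 and were Hspb6, Hspb8, Dnajc4 and Dnajc24. These shares are below those of all genes, but with 56 members the gap is a matter of few genes and is not read as a trait of the members. The split of 6 higher and 4 lower was 4 and 5 with TMM scaling of the counts, 3 and 7 from FPKM, and 4 and 6 after centring on the median of all genes. All genes moved likewise: of their 1.5-fold calls, 57.5% were higher in the TPM ratio, 51.7% with TMM, 38.1% from FPKM and 46.3% after centring.

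Among the 71 members that averaged 1 TPM or more over both libraries, 38 were higher and 33 lower, which matches the background of 53.2% higher and 46.8% lower among all genes at that level. Their median log2 ratio (with 0.1 TPM added to each value) was 0.05, and that of all genes was 0.04. The 2 ends of the expression range differed. Of the 27 members with a mean of at least 100 TPM, 21 were higher, whereas 1015 of the 1733 genes at that level (58.6%) were. Of the 16 members between 1 and 10 TPM, 13 were lower, whereas 55.8% of all genes at that level were.

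**Figure D1:**
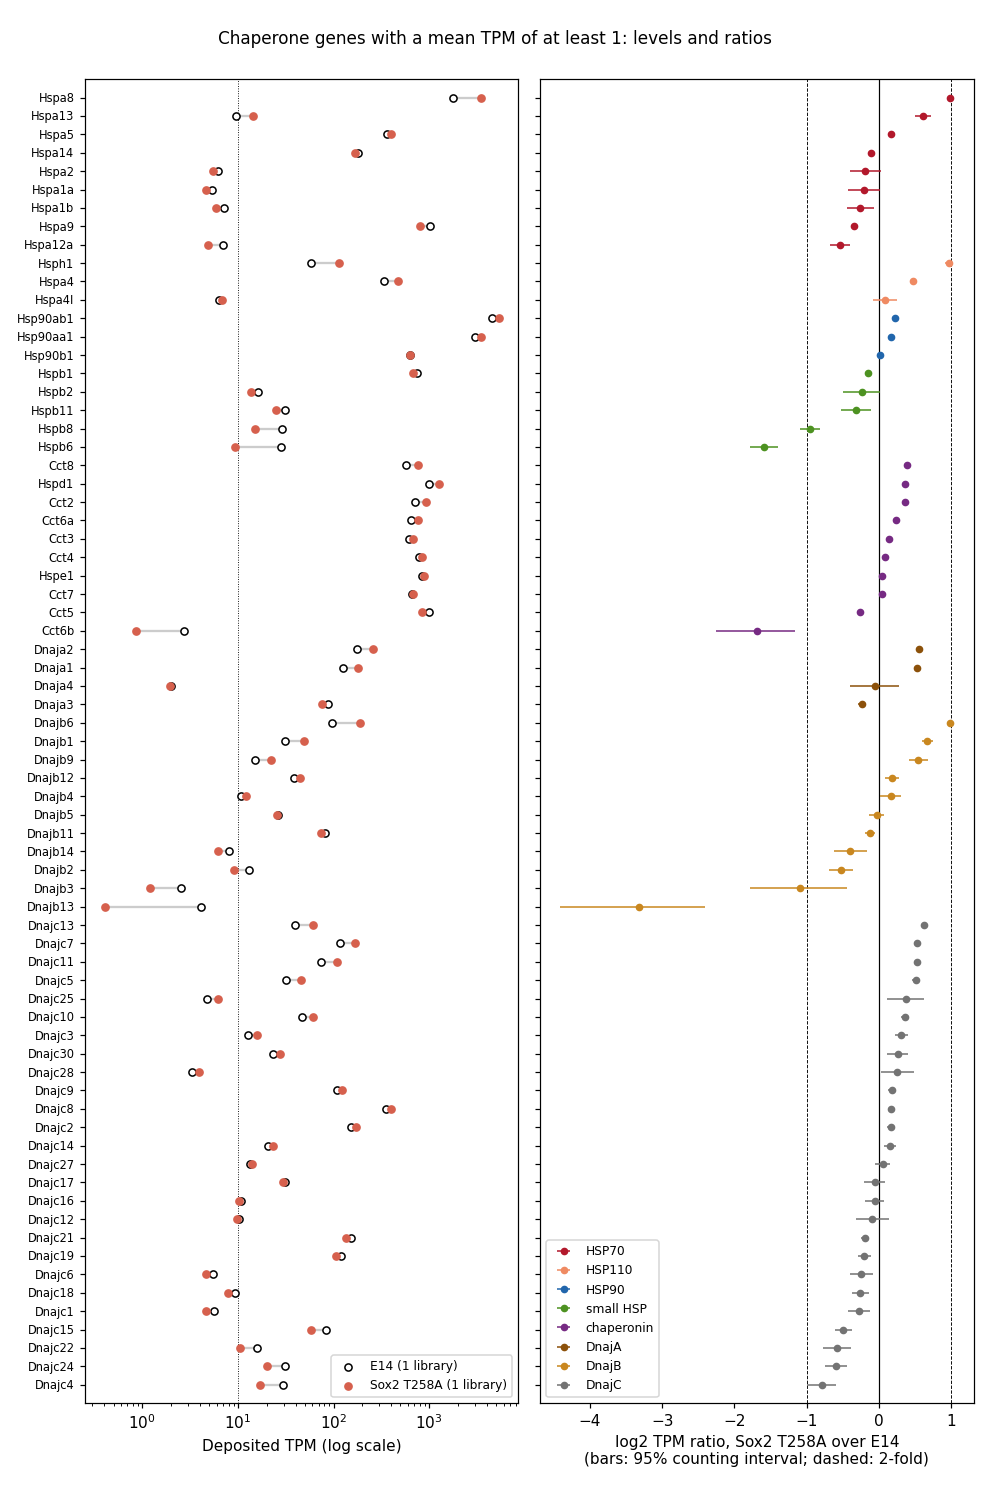
Levels (left, deposited TPM on a log axis, 1 library per genotype, dotted line at 10 TPM) and log2 ratios with 95% counting intervals (right, dashed lines at 2-fold) of the 71 members averaging 1 TPM or more, ordered by class and ratio. By TPM, HSP110 and HSP90 genes all lie at or right of 0 and small HSP genes left of it, although Hspa4l, Hsp90b1, Hspb1 and Hspb2 change side under another scaling, and Hspa8, Hsph1 and Dnajb6 sit just inside the 2-fold line.

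**Figure D2:**
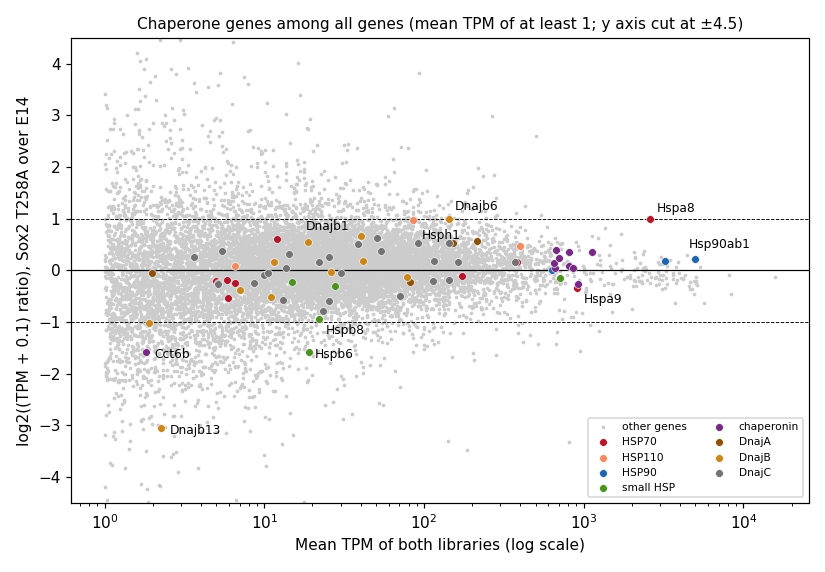
The log2 ratio of (TPM + 0.1) against the mean TPM (log axis) for all genes averaging 1 TPM or more, in grey, and for the chaperone classes in colour, with dashed lines at 2-fold. Hspa8 lies above the other genes of its abundance, and members more than 2-fold lower lie at means below 20 TPM.

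Hspa8 (chr9:40801276-40805202 in GRCm38) encodes Hsc70, the constitutive HSP70 of the cytosol. It had 116231 reads and 1754 TPM in E14, and 154243 reads and 3474 TPM in Sox2 T258A cells. Its log2 ratio was 0.99 (95% counting interval 0.975 to 0.997), a 1.98-fold difference, and it was higher under each of 7 other ways of scaling (0.84 to 1.08). Among the 124 genes with a mean of at least 1000 TPM, Hspa8 had the highest ratio, in the TPM ratio and under all 7 alternatives; this group was picked after the values had been seen. By TPM it ranked 86 among all genes in E14 and 29 in Sox2 T258A cells. Its share of the TPM of the cytosolic HSP70 genes was 89.5% in E14 and 94.8% in Sox2 T258A cells. Hspa8 has processed pseudogene copies in the mouse genome, and how reads that fit several places were counted is not given in the sources used here.

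The stress-inducible HSP70 genes did not follow Hspa8. Hspa1a had 5.34 and 4.63 TPM in E14 and Sox2 T258A cells, and Hspa1b had 7.09 and 5.95 TPM. Both levels were low and slightly lower in Sox2 T258A cells, and because these genes are near-identical copies the sum is safer. Summed, they had 1099 and 627 reads, or 12.4 and 10.6 TPM, a log2 ratio of -0.23 (-0.38 to -0.09). The other cytosolic HSP70 genes were also at or below their E14 level. Hspa14, a ribosome-associated HSP70, had a log2 ratio of -0.10 (179.7 and 168 TPM). Hspa2, known for its role in spermatocytes, had 6.19 and 5.45 TPM, with an interval that spanned no change (-0.40 to 0.03). Hspa12a, a distant relative, had 7.03 and 4.85 TPM (-0.54, -0.68 to -0.39), and its paralog Hspa12b had 73 and 46 reads, below 1 TPM. Of the 6 cytosolic HSP70 genes that averaged 1 TPM or more, Hspa8 was the only higher one, and their summed TPM nevertheless had a log2 ratio of 0.90.

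The HSP110 genes, nucleotide exchange factors of HSP70, were all higher by TPM, with a median log2 ratio of 0.48 against 0.04 for all genes, though Hspa4l turned lower under another scaling. Hsph1, known as Hsp105 and inducible by heat, had 57.6 TPM in E14 and 113 TPM in Sox2 T258A cells (6310 and 8276 reads). This gave a log2 ratio of 0.97 (0.92 to 1.02), between 0.83 and 1.01 under the other scalings. Hspa4, the most abundant HSP110, had 335 and 466 TPM (0.48, 0.46 to 0.50). Hspa4l, at 6.37 and 6.77 TPM, had an interval that spanned no change, and its ratio was -0.54 after removal of the GC and length trend and below 0 from FPKM. Hspa8 differed about as much as Hsph1 and more than Hspa4, which makes up most of their sum. The ratio of Hspa8 TPM to the sum of Hsph1 and Hspa4 TPM was 4.47 in E14 and 5.998 in Sox2 T258A cells.

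DnajA and DnajB genes of the cytosol were mixed, with 5 of the 10 that averaged 1 TPM or more higher and 5 lower, and the 4 most abundant, Dnaja2, Dnaja1, Dnajb6 and Dnajb1, were higher. Dnajb6, which suppresses aggregation of client proteins, had 95.6 and 190.3 TPM, a log2 ratio of 0.99 (0.95 to 1.04). Its reads went from 6869 to 7730, which is a smaller difference (0.75) when every gene is given the median TPM per read of all genes, so TPM per read differed between the libraries for this gene. Like Hspa8 and Hsph1, it was past 1.5-fold under all 7 alternatives (0.70 to 1.06). Dnajb1, the classical Hsp40 and inducible by heat, had 30.9 and 49.3 TPM (0.67, 0.60 to 0.75). It lies on chromosome 8, on which genes were higher in general (median 0.26, against 0.04 for all genes). With that difference between medians taken off, its ratio relative to its own chromosome was 0.46.

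Dnaja1 and Dnaja2, the main DnajA proteins of the cytosol, differed by less. Dnaja1 had 124 and 179.6 TPM (0.53, 0.50 to 0.57), which was 0.10 once the GC and length trend was removed. Dnaja2, also on chromosome 8, had 174 and 257 TPM (0.56, 0.53 to 0.60). Dnajc7, a partner of both HSP70 and HSP90, had 116 and 169 TPM (0.54). Dnajb4 and Dnajb5 were near no change, at 0.17 and -0.03, and both changed sign after removal of the GC and length trend. Dnaja4 was at -0.06 and Dnajb2, a neuronal cochaperone, at -0.52.

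The DnajC class, whose proteins share little besides the J-domain, was as mixed as the genome. Of its 26 genes, all averaging 1 TPM or more, 14 were higher and 12 lower, with a median log2 ratio of 0.11. The highest ratio was that of Dnajc13, which acts in endosomal sorting, at 39.7 and 61.4 TPM (0.63, 0.59 to 0.67), although this was 0.17 after removal of the GC and length trend. Dnajc5, the cysteine string protein of secretory vesicles, had 31.6 and 45.3 TPM (0.52). Dnajc8, a splicing-associated member and the most abundant of the class, had 351 and 395 TPM (0.17).

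At the lower end of the class stood Dnajc4, of little known function, with 29.3 TPM in E14 and 17.0 TPM in Sox2 T258A cells (777 and 301 reads; -0.79, -0.99 to -0.60). Removal of the GC and length trend brought it to -0.40. Dnajc24, which takes part in diphthamide synthesis, had 30.7 and 20.3 TPM (-0.60, -0.75 to -0.44). Dnajc22 had 15.7 and 10.5 TPM (-0.58, -0.77 to -0.39). The DnajC genes not named here or under the organelles below lay between -0.28 (Dnajc1) and 0.38 (Dnajc25).

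The cytosolic HSP90 genes were among the most abundant members and differed little. Hsp90ab1, the constitutive cytosolic form, had 4553 TPM in E14 and 5334 TPM in Sox2 T258A cells, a log2 ratio of 0.23 (0.22 to 0.24). Hsp90aa1, the form that is inducible by stress, had 3045 and 3442 TPM (0.18, 0.17 to 0.18). The cytosolic forms kept their proportions, with Hsp90aa1 at 40.1% of their TPM in E14 and 39.2% in Sox2 T258A cells. The counting intervals are narrow because of the read depth, yet Hsp90aa1 was at 0.01 after removal of the GC and length trend. Against all genes, whose median was 0.04, neither gene stood far away.

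By TPM, the 5 small HSP genes that averaged 1 TPM or more were all lower in Sox2 T258A cells (background 46.8%). However, Hspb1 and Hspb2 were higher once the GC and length trend was removed. The class had a median log2 ratio of -0.31, and the largest differences were in Hspb6 and Hspb8, small HSPs best known from muscle. Hspb6 (chr7:30552535-30555443) had 1185 reads and 28.4 TPM in E14, and 264 reads and 9.41 TPM in Sox2 T258A cells. The log2 ratio of -1.59 (-1.79 to -1.40) was a 3.02-fold lower level and ranged from -1.74 to -1.29 over the other scalings. It shares 5.31% of its exonic bases with Proser3. Hspb8 had 29.1 and 15.1 TPM (-0.95, -1.09 to -0.81) and ranged from -1.09 to -0.77.

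Hspb1, or Hsp25, is the abundant small HSP of ESCs and set the class total. It had 744 TPM in E14 and 669.7 TPM in Sox2 T258A cells (-0.15, -0.18 to -0.12), but 0.31 after removal of the GC and length trend, so its direction depends on that choice. Hspb11, a component of cilia, had 30.8 and 24.9 TPM (-0.31, -0.52 to -0.10). Hspb2 had 16.1 and 13.7 TPM, an interval that spanned no change (-0.49 to 0.02), a ratio of 0.16 after removal of the trend, and exons of which 30.2% overlap those of its neighbour Cryab.

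The remaining small HSP genes were at or near the floor of 3 reads. Hspb7 had 15 reads in E14 and 3 in Sox2 T258A cells (-1.96, -4.39 to -0.14). Hspb9 had 10 and 0 reads, which is at least 2.23-fold lower against a floor of 3 reads in the Sox2 T258A library. Hspb3 had 3 and 0 reads, too few for a fold. Cryab, a small HSP outside the naming rule, went the other way, with 8.78 and 12.2 TPM (0.47, 0.22 to 0.73). Cryaa, the related lens protein, had 41 and 2 reads.

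Markers of endoderm were also lower in Sox2 T258A cells, with a median log2 ratio of -1.89 against -0.31 for the small HSP class. Of the 6 endoderm markers, all 4 that averaged 1 TPM or more were lower, namely Gata4, Gata6, Sox17 and Sox7, with summed levels of the whole list of 31.5 TPM in E14 and 8.48 TPM in Sox2 T258A cells. Afp was at 0 reads in both libraries. The part of these cells in the lower Hspb6 and Hspb8 levels was not tested. Of the 6 fibroblast markers with reads, Thy1 and Pdgfrb were lower, whereas Col1a1, Col1a2, Col3a1 and Twist2 were higher, with Col3a1 at 15 and 151 reads and Col1a2 at 43 and 109 reads.

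Members of germ cells and cilia were at the bottom of the range. Hspa1l, Hspa2, Hspb9, Cct6b, Dnajb3, Dnajb7, Dnajb8 and Dnajb13 are best known from testis, and were gathered after their values had been seen, so they get no test. Together they had 953 reads in E14 and 375 in Sox2 T258A cells. Of the 8, 2 had no reads and the other 6 were lower in TPM, Hspa2 within counting error. Genes of low level were lower more often in general, with 55.8% of all genes averaging between 1 and 10 TPM lower. Hspa1l and Hspb9 averaged below 1 TPM. Dnajb13, a protein of ciliary and sperm axonemes, had 147 and 10 reads, or 4.08 and 0.41 TPM (-3.33, -4.42 to -2.41). Cct6b, a testis variant of a chaperonin subunit, had 162 and 35 reads, or 2.75 and 0.85 TPM (-1.69, -2.26 to -1.16). Dnajb3 had 82 and 26 reads (-1.09, -1.78 to -0.43). Hspa1l had 51 and 8 reads (-2.27, -3.56 to -1.19), and 71.9% of its exonic bases are shared with an antisense gene, whose reads may not be separable since the handling of strand is not given in the sources used here.

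The cytosolic chaperonin CCT folds actin, tubulin and other proteins inside a ring of 8 different subunits, of which Tcp1 lies outside the naming rule and Cct6b replaces Cct6a in testis. The 7 abundant Cct members lay between 575 and 1005 TPM in E14 and between 675 and 915 TPM in Sox2 T258A cells. Their levels were thus closer to each other in Sox2 T258A cells, with the highest 1.75 times the lowest in E14 and 1.36 times in Sox2 T258A cells. With Tcp1 included these ratios were 1.91 and 1.36. This spread is over subunits and not over samples.

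Tcp1 and Cct8, the subunits with the lowest levels in E14, had the highest ratios. The E14 level is also the denominator of the ratio, so level and ratio are not independent. The order did not hold among the other subunits, since Cct2 had a higher E14 level than Cct3 and also a higher ratio. Tcp1 had 525 and 711 TPM (0.44), and Cct8 had 575 and 758 TPM (0.40, 0.38 to 0.42). Cct2 had 712 and 915 TPM (0.36, 0.34 to 0.38). Cct6a had 643 and 758 TPM (0.24, 0.22 to 0.26), and Cct3 had 616 and 683 TPM (0.15, 0.13 to 0.17). Cct4, at 785 and 837 TPM (0.09), and Cct7, at 654 and 675 TPM (0.05), were near no change, and both turned negative in the FPKM ratio, on which the median of all genes past the filter is lower by 0.14.

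Cct5 was the exception among the abundant subunits. It was the highest in E14, at 1005 TPM, and had 840.5 TPM in Sox2 T258A cells (-0.26, -0.28 to -0.24). Cct5 lies on chromosome 15, on which the median log2 ratio of genes was -0.20, against 0.04 for all genes. With that difference between medians taken off, Cct5 was at -0.02. The other members of chromosome 15 past the filter, Dnajc21 and Dnajc22, were lower as well.

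**Figure D3:**
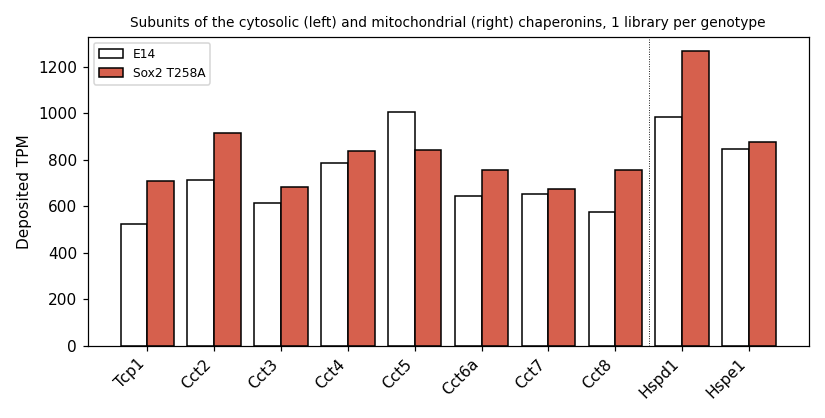
Deposited TPM (linear axis from 0) of the 8 subunits of the cytosolic chaperonin and, right of the dotted line, of the mitochondrial chaperonin Hspd1 and its lid Hspe1, in E14 (white) and Sox2 T258A cells (red), 1 library each. By TPM, Cct5 is the only gene shown that is lower in Sox2 T258A cells, although Cct4, Cct7 and Hspe1 also fall below E14 from FPKM.

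In mitochondria, chaperones of a shared pathway differed in direction. Hspd1, or Hsp60, had 985 TPM in E14 and 1267 TPM in Sox2 T258A cells (0.36, 0.35 to 0.38). Its lid Hspe1, or Hsp10, which shares the promoter stretch shown above, had 847 and 876 TPM (0.05, 0.02 to 0.08). The ratio of Hspd1 to Hspe1 TPM was therefore 1.16 in E14 and 1.45 in Sox2 T258A cells. The Hspe1 ratio was -0.10 from FPKM and 0.31 after removal of the GC and length trend, so no direction is given for it. Hspd1 was at 0.35 after that removal, close to Hspe1, so the difference in their proportion also depends on this choice.

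Hspa9, or mortalin, the HSP70 of the mitochondrial matrix, was lower, with 1016 TPM in E14 and 804 TPM in Sox2 T258A cells. Its log2 ratio of -0.34 (-0.35 to -0.32) was negative under each alternative. Its DnaJ partner Dnaja3 had 87.9 and 75.0 TPM (-0.23). Dnajc19 and Dnajc15, which act at the import motor of the inner membrane, had log2 ratios of -0.20 (-0.39 with the median TPM per read of all genes) and -0.49, whereas Dnajc11, of the cristae-organising complex, had 0.53. Over the 8 mitochondrial members, 4 were higher and 4 lower, and their summed TPM had a log2 ratio of 0.04.

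The abundant ER members Hspa5 and Hsp90b1 were close to their E14 levels. Hspa5, or BiP, the HSP70 of the ER, had 358 and 403 TPM (0.17, 0.14 to 0.20). Hsp90b1, or Grp94, had 629.6 and 634 TPM (0.01, -0.01 to 0.03), a value whose sign changed with the scaling. Dnajc3, which restrains the stress kinase of the ER, had 12.7 and 15.8 TPM (0.31, 0.22 to 0.41). These genes are the ones with an ER stress response element in their window.

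Among the other ER members, Dnajb9 and Hspa13 had the highest ratios. Dnajb9, a DnaJ partner of BiP, had 15.2 and 22.3 TPM (0.55, 0.41 to 0.69). Hspa13, a microsomal HSP70, had 9.48 and 14.5 TPM (0.61, 0.50 to 0.73), but 0.25 after removal of the GC and length trend. Dnajb11, a further partner of BiP, had 81.0 and 74.5 TPM (-0.12), and the membrane-bound Dnajb12 and Dnajb14 had log2 ratios of 0.19 and -0.39. Over the 14 ER members, 9 were higher and 5 lower (background 53.2% and 46.8%), with a median log2 ratio of 0.17.

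Genes that work with the chaperones without belonging to the named families were taken from lists by role. Of the 67 such genes, 66 averaged 1 TPM or more. Of these 66, 37 were higher and 29 lower (background 53.2% and 46.8%), with a median log2 ratio of 0.04. Among those that reached 10 TPM in either library, 2 differed by 1.5-fold in the higher direction (background 14.2%), Chordc1 and Hsf2, and 8 in the lower (background 10.5%).

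Of the cochaperones of HSP70 and HSP90, 18 of 22 were higher by TPM (background 53.2%), with a median log2 ratio of 0.21. Of all genes averaging from 10 to 100 TPM, 57.8% were higher, and 58.6% of those at 100 TPM or more. Fkbp4, Ahsa1 and Fkbp5 were lower from FPKM. After removal of the GC and length trend, Cdc37 and Sugt1 were lower, whereas Stub1, Bag1, Sgta and Hspbp1 were higher. Chordc1, an HSP90 partner whose promoter held the heat shock element shown above, had 56.4 and 103 TPM (0.87, 0.81 to 0.93), and 0.41 after removal of the GC and length trend. Stip1 (Hop), which bridges HSP70 and HSP90, had 549 and 618 TPM (0.17). The exception of largest size was Bag1, a nucleotide exchange factor, at 173 and 147 TPM (-0.24), though it was at 0.06 after removal of the GC and length trend.

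Of the 6 genes listed as heat shock factors or their binding proteins, 5 were lower by TPM (background 46.8%) and Hsf2 was higher. However, Hsf1 was at 0.17 after removal of the GC and length trend and at 0.16 relative to its own chromosome. Hsf1, the main activator of the heat shock response, had 54.0 and 51.2 TPM (-0.08, -0.15 to -0.01). Hsf2, which acts in development, had 35.2 and 52.8 TPM (0.59, 0.51 to 0.66). Its binding protein Hsf2bp had 59.1 and 35.6 TPM (-0.73). Hsf5, a testis factor, had 1.69 and 0.83 TPM (-1.03). Transcript levels do not report the activity of Hsf1, which is set after translation.

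Of the CCT partners, which include prefoldin, 7 of 10 were higher (background 53.2%). Pfdn4 had the highest ratio, with 70.2 and 103 TPM (0.56), and Pfdn5 the lowest, with 336 and 202 TPM (-0.74, -0.80 to -0.68). The prefoldin subunits of 1 complex thus differed in direction.

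Of the ER folding factors and regulators of the unfolded protein response, 12 of 18 were lower (background 46.8%). The regulators in this list, Ddit3, Xbp1, Atf6 and Ern1, were all among the lower genes by TPM. Ddit3, or CHOP, a transcription factor induced by stress, had 2592 reads and 95.2 TPM in E14, and 284 reads and 15.5 TPM in Sox2 T258A cells (-2.62, -2.80 to -2.44). Sdf2l1, which works with BiP, had 72.6 and 36.0 TPM (-1.01). Serpinh1, the collagen chaperone Hsp47, had 171 and 94.1 TPM (-0.86). Creld2 and Sil1 were also lower by 1.5-fold, at -0.70 and -0.64, and Canx just missed it at -0.55. Sec63, a J-domain protein of the translocon, had the highest ratio (0.38). In mitochondria, 4 of 9 were higher (background 53.2%). Hscb, a J-domain protein of iron-sulphur cluster assembly, was lowest (56.2 and 35.0 TPM, -0.68). Timm44 was highest (0.19, but -0.02 relative to its own chromosome).

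**Figure D4:**
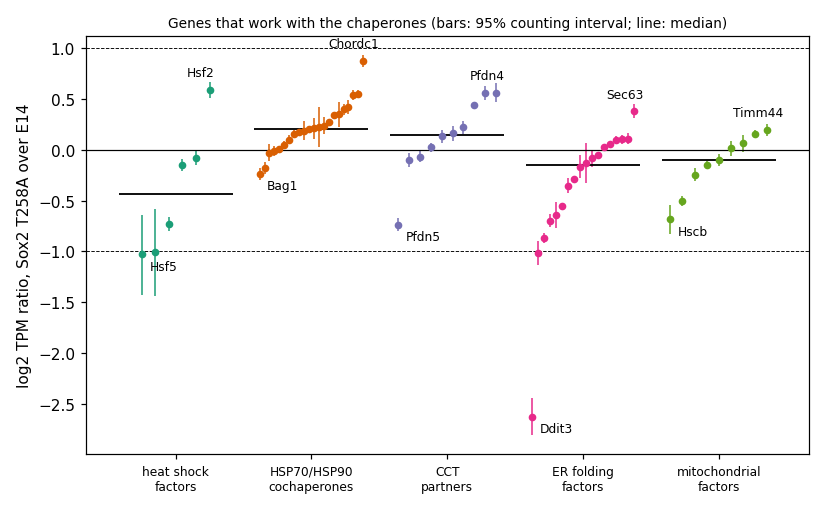
Log2 TPM ratio (Sox2 T258A over E14) with 95% counting intervals of the partner genes averaging 1 TPM or more, by list, with the list median as a black line and 2-fold as dashed lines. The cochaperones lie mostly above 0, and Ddit3 lies far below the other ER factors.

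Levels were then set beside the promoter elements. The 4 members with a heat shock element had log2 ratios of 0.99 (Dnajb6), 0.97 (Hsph1), 0.36 (Hspd1) and 0.05 (Hspe1), and Chordc1 had 0.87. The 53 non-members with this element that averaged 1 TPM or more, Chordc1 included, had a median of 0.13. The 9990 genes with a window at that level had a median of 0.03. Of the 53, 30 were higher, near the background of 53.2% for all genes at that level. For the ER stress response element, the members had 0.31, 0.17 and 0.01, and the 17 non-members had a median of -0.49, with 6 higher (background 53.2%). The partners among these were Calr (0.06, below 0 from FPKM, after centring and relative to its own chromosome), Pdia6 (-0.29), Canx (-0.55) and Creld2 (-0.70). These are descriptions of few genes, and Hspd1 and Hspe1 share a single stretch.

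**Figure D5:**
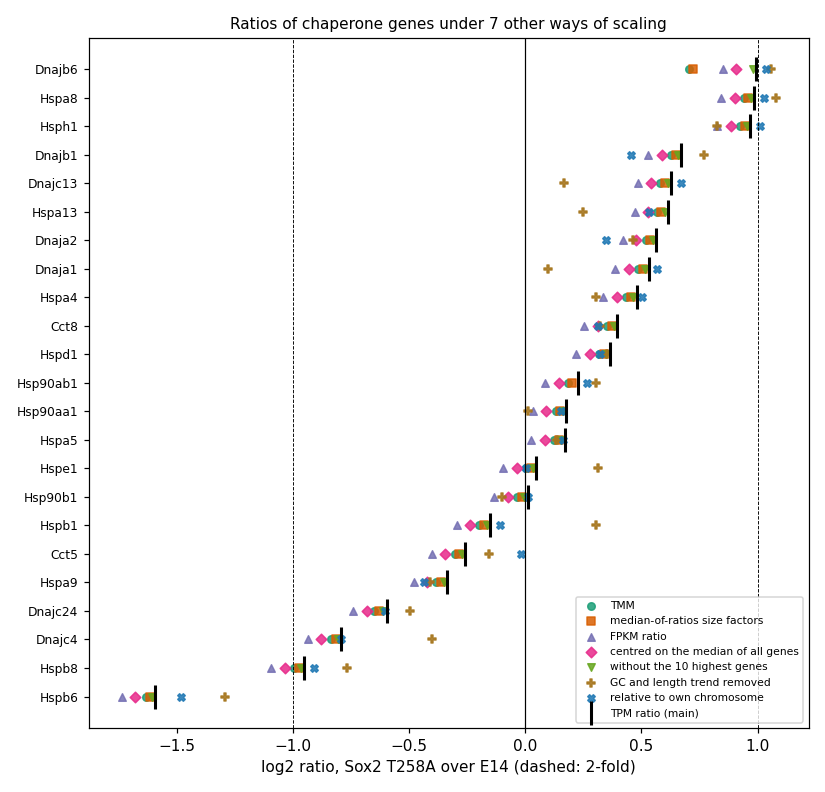
Log2 ratios (Sox2 T258A over E14) of 23 chaperone genes by the TPM ratio (black bar) and by 7 other scalings (symbols), with dashed lines at 2-fold. Hspa8, Dnajb6, Hsph1, Hspb8 and Hspb6 keep well apart from 0 under each, while Hsp90b1, Hspe1 and Hspb1 lie on both sides of it.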

How the data were processed

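RNA-seq was performed with 1 library of E14 ESCs and 1 of Sox2 T258A ESCs. The submitters' processing notes name bcl2fastq 2.20.0, Trimmomatic, HISAT2 2.1.0 and StringTie 2.1.3b and the builds mm10 and hg19, and the gene table is that of mm10. The authors deposited whole-number read counts without normalization, FPKM values (scaled per kilobase and by fragments) and TPM values (scaled per kilobase to a common library sum). Handling of strand and of reads with several matches is not given in the sources used here. No values were left out.

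From these, the TPM ratio of Sox2 T258A over E14 was computed without a pseudocount, for genes that reached 10 TPM in either library, and with a 2-fold threshold, as in the study's methods. Medians used log2((TPM + 0.1) ratio) over genes averaging 1 TPM or more. The 95% intervals (Clopper-Pearson on the read counts, scipy 1.17.1, moved to the TPM scale) and the floor of 3 reads (0.0498 CPM in E14, 0.0673 CPM in Sox2 T258A cells) cover counting error only, since PCR reads are not independent molecules, and not the spread between cultures. Scripts were tested on simulated data.

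Named with values were the principal HSP70, HSP110, HSP90 and chaperonin genes, members past 1.5-fold, the extremes of each class, and partner genes past 1.5-fold or at a list's extremes. Others are named for their role. Members, lists and this rule were chosen with earlier results of these data known. Alternatives were other filters, folds and pseudocounts, the FPKM ratio, count scaling by TMM (edgeR 4.0.16) or median-of-ratios (DESeq2 1.42.0), centring on the median of all genes, a rescaling that leaves out the 10 highest genes, subtraction of a GC and length trend (20 bins each), the ratio relative to a gene's own chromosome, and Hspa1a and Hspa1b summed. For the ratio relative to the own chromosome, the chromosome's median was taken off and the median of all genes (0.04) added back. Transcript length, GC, positions and overlaps came from the GRCm38 annotation, which covered 78 of 78 members. Protein sequences were not analysed here.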

Additional observations from a re-analysis of the deposited data

How the results depend on the processing

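With 1 library per genotype, none of the values has a replicate check. Counting error is widest for members near the floor of 3 reads, but the intervals of 7 of the 56 members past the TPM filter also spanned no change. No paired analysis was possible because each group held 1 library. The number of members more than 2-fold higher (0) was 6 at a 1.5-fold threshold, 2 after removal of the GC and length trend (Hspa8 and Dnajb6) and 3 relative to the own chromosome (these and Hsph1), and 0 under the other alternatives. The 3 passed 2-fold relative to the own chromosome only because that ratio adds back the median of all genes (0.04). The number more than 2-fold lower (1) was 4 at 1.5-fold, 4 with a minimum TPM of 1, 8 without a TPM filter (with Hspb9 and Hspb3, which had no reads in Sox2 T258A cells), 2 from FPKM and 2 after centring on the median of all genes (Hspb8 being added in both), and 1 elsewhere. The median log2 ratio of members (0.05) was 0.16 at a mean TPM of at least 10, -0.0073 without a filter, 0.0030 with TMM, -0.10 from FPKM, -0.037 after centring and 0.011 after removal of the GC and length trend, so its sign is not settled. The cause of these differences was not tested, other than that FPKM lowers the median of all genes by 0.14. Calls past 1.5-fold were 6 higher and 4 lower in the TPM ratio, 4 and 5 with TMM, 3 and 7 from FPKM, 4 and 6 after centring, 6 and 5 with median-of-ratios and without the 10 highest genes, 6 and 3 after removal of the GC and length trend, and 4 and 4 relative to the own chromosome. Over all genes these calls were 1291 and 955 in the TPM ratio, 1136 and 1061 with TMM, 819 and 1329 from FPKM and 1007 and 1168 after centring. Among the 56 members past the TPM filter, the direction of 44 held under all 7 scalings (28 higher and 16 lower) and that of 12 changed under at least 1.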
